A study of Arabidopsis thaliana with 2 samples.

Results

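The alpha- and beta-tubulin genes TUA1, TUA2, TUA3, TUA4, TUA5, TUA6, TUB1, TUB4, TUB6 and TUB9 were followed in mature pollen of Arabidopsis thaliana. These 10 genes were taken by locus identifier from the 33322 nuclear loci of the deposited tables, and all 10 were present. They comprise every alpha-tubulin gene listed for this work and 4 of the 9 beta-tubulin genes. Pollen of the ecotype Ler-0 was set against pollen of Col-0, the ecotype of the reference genome, in a series on small RNAs of transposons and the response to genome dosage. Both ecotypes carry no named transgene or mutation in the labels and were grown in long days at the same temperature, and no treatment is named. Open flowers were vortexed in buffer, the suspension was passed through a mesh, and total RNA depleted of rRNA was sequenced, with 1 library per ecotype. No difference below has a replicate check, so no p-value is given. Every interval covers counting error only.

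Microtubules are hollow polymers of alpha- and beta-tubulin heterodimers, and each partner is encoded by a small gene family whose members differ in where they are expressed. A mature grain encloses sperm cells inside the vegetative cell that later forms the tube. In pollen tubes microtubules run along the shank and surround the sperm cells that are carried through the tube. TUA1 is annotated as an alpha-tubulin expressed primarily in stamens and mature pollen. TUA2 and TUA4 are annotated as encoding identical proteins.

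The alpha-tubulin genes fall into 3 groups by sequence. The coding sequences of TUA2, TUA4 and TUA6 were 95.1% to 96.6% identical to each other, and those of TUA3 and TUA5 were 97.9% identical. TUA1 stood alone, at 74.4% to 79.4% identity with the other 5. On translation, TUA2 and TUA4 differed at 0 residues, TUA6 differed from each of them at 2, TUA3 and TUA5 differed at 0, and TUA1 differed from the others at 37 to 52. The last 75 coding bases, which encode the acidic tail of the protein and end with the stop codon, are shown because they let the groups be told apart by eye. Capitals mark bases that differ from TUA2.
TUA1: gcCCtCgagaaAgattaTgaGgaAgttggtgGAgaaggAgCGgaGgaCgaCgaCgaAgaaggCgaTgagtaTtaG
TUA2: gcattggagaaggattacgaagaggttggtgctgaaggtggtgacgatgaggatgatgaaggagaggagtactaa
TUA4: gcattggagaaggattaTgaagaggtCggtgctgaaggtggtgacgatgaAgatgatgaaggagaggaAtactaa
TUA6: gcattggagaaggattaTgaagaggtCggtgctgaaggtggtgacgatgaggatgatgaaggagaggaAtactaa
TUA3: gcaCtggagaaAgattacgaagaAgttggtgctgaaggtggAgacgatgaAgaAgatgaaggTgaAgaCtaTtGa
TUA5: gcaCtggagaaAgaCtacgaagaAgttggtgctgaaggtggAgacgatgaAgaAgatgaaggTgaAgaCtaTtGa
In this stretch TUA1 differed from TUA2 at 21 positions, TUA3 at 11 and TUA5 at 12, while TUA4 differed at 4 and TUA6 at 3. Sequences are from RefSeq on TAIR10.1, whose nuclear chromosomes hold all coordinates of the deposited tables.

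**Figure D1:**
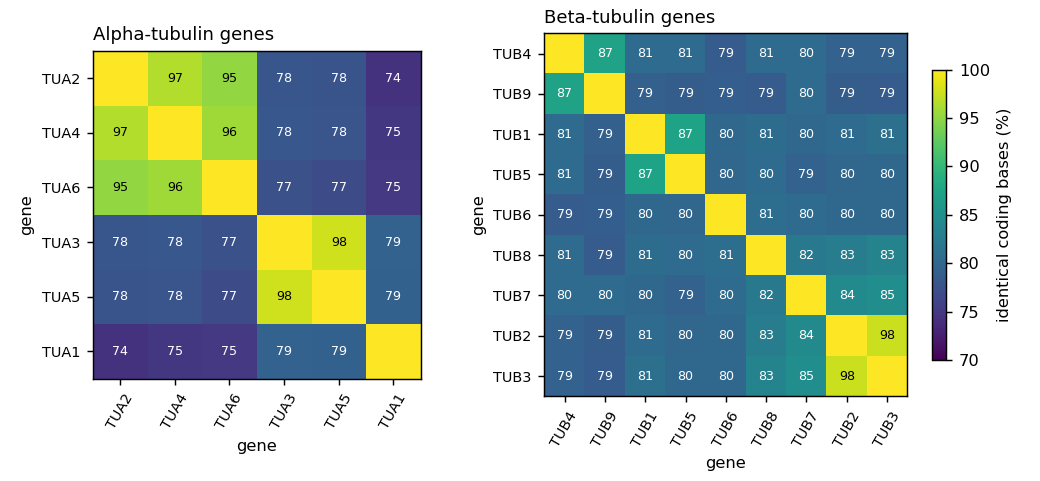
Percent of identical coding bases between pairs of alpha-tubulin genes (left) and of beta-tubulin genes (right), in RefSeq sequence of the Col-0 genome; the diagonal is each gene against itself. TUA2, TUA4 and TUA6 form a block at 95.1% or more, and TUA3 and TUA5 a pair at 97.9%. Among the beta genes TUB2 and TUB3 are a pair at 97.6%, and TUB1 with TUB5 (87.4%) and TUB4 with TUB9 (87.3%) are looser pairs.

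How far reads of these genes can be assigned was measured from the reference. No run of 50 bases in the spliced TUA1 transcript occurred anywhere else in the nuclear genome, and its longest identical run with another alpha-tubulin transcript was 28 bases. In TUA2, TUA4 and TUA6, 10.5%, 18.4% and 11.2% of the 50-base runs also occurred in another member of that group, so 81.6% to 89.5% were found in 1 gene only. TUA3 and TUA5 shared 32.0% and 35.4% of their 50-base runs with each other. In the beta members TUB1, TUB4, TUB6 and TUB9 99.8% to 99.9% of such runs were found in 1 gene only. Read length and the rule for reads with several matches were not stated in the sources used here, and aligners tolerate mismatches, so reads of TUA3 and TUA5, and a minor part of those of TUA2, TUA4 and TUA6, are uncertain between group members. The sequence of Ler-0 was not used here, and how its reads aligned to the Col-0 genome was not tested.

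TUA1 was the most abundant tubulin RNA in both libraries, but it took a far smaller share of alpha-tubulin reads in Ler-0 pollen than in Col-0 pollen. TUA1 (AT1G64740, chr1:24050006-24052487, plus strand, 5 exons) held 296472 reads and 1343 FPKM in Ler-0 and 391947 reads and 2065 FPKM in Col-0. FPKM, the deposited unit, is a read number scaled to gene span and library depth. The ratio, Ler-0 over Col-0, was 0.650 (exact 95% binomial interval 0.647 to 0.654). TUA1 ranked 83 among all loci by FPKM in Ler-0 and 54 in Col-0. It overlaps 126 bases of AT1G64750 on the other strand, which stood at 46.1 FPKM in Ler-0 against 47.3 in Col-0; whether strand was used in counting is not stated. An antisense transcript, AT1G08727, is annotated within TUA1 in TAIR10.1 and was not counted apart here.

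The 3 near-identical genes TUA2, TUA4 and TUA6 went the other way and stood 2.25 to 2.92 times higher in the Ler-0 library. TUA2 (AT1G50010, chr1:18517586-18520000, plus strand, 4 exons) stood at 564 FPKM in Ler-0 against 215 in Col-0, a ratio of 2.62 (2.59 to 2.65). TUA4 (AT1G04820, chr1:1356191-1358386, minus strand) stood at 239 FPKM in Ler-0 against 107 in Col-0, a ratio of 2.25 (2.21 to 2.29). TUA6 (AT4G14960, chr4:8548492-8550453, minus strand) stood at 195 FPKM in Ler-0 against 67.0 in Col-0, a ratio of 2.92 (2.85 to 2.98). The order TUA2, TUA4, TUA6 was the same in both libraries, with TUA2 at 2.36 times TUA4 in Ler-0 and 2.02 times in Col-0. TUA2 overlaps 55 bases of AT1G50020 on the other strand, which held 832 reads in Ler-0 and 572 in Col-0, far fewer than the reads of TUA2, 121212 in Ler-0 against 39738 in Col-0. The antisense transcript AT1G07603, annotated within TUA2 in TAIR10.1, was not counted apart here. Summed over the 3 genes, 202059 reads in Ler-0 stood against 67671 in Col-0, a ratio of 2.57 (2.55 to 2.59). The sum does not depend on how reads were divided among the 3 genes only if each shared read was counted once, which is not stated.

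A gene was called at a centred log2 ratio of at least 1, that is 2-fold, where the log2 ratio of FPKM + 1 is set relative to its median of 0.06 over the 6656 genes that reach FPKM 1 in both libraries. By this measure TUA2 (1.32), TUA4 (1.099) and TUA6 (1.47) were called higher in Ler-0, 3 of the 10 members, and 0 members were called lower. Of 9562 expressed genes, those that reach FPKM 1 in at least 1 library, 11.3% were called higher in Ler-0 and 10.3% lower, or 21.6% in either direction. A background of abundant genes was added after the data were seen. Among the 1056 that reach FPKM 50 in at least 1 library, 15.4% were called higher in Ler-0 and 13.9% lower, or 29.4% in either direction. Of the members, 6 are that abundant, and the 3 called are among them. At 4-fold the count of members was 0, against 3.44% of expressed genes higher, 2.22% lower and 5.66% in either direction. Among the abundant genes those shares were 8.43%, 5.49% and 13.9%. The 3 members called share reads in part and are not independent of each other.

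The mix of alpha-tubulin RNA differed while its total was close. All 6 alpha-tubulin genes together took 0.562% of reads in Ler-0 and 0.603% in Col-0, a ratio of 0.931 (0.928 to 0.935). Within that total, TUA1 made up 59.4% of reads (exact interval 59.2% to 59.5%) in Ler-0 and 85.0% (84.9% to 85.1%) in Col-0. TUA2, TUA4 and TUA6 together made up 40.5% (40.3% to 40.6%) in Ler-0 and 14.7% (14.6% to 14.8%) in Col-0. The FPKM of TUA1 was 1.34 times the summed FPKM of those 3 genes in Ler-0 and 5.31 times in Col-0. These shares are set within a library, so the scaling between libraries does not enter them. By FPKM, which scales to gene span, TUA1 made up 57.2% in Ler-0 against 83.8% in Col-0. Taken per exonic length instead, it made up 61.9% in Ler-0 against 86.3% in Col-0.

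**Figure D2:**
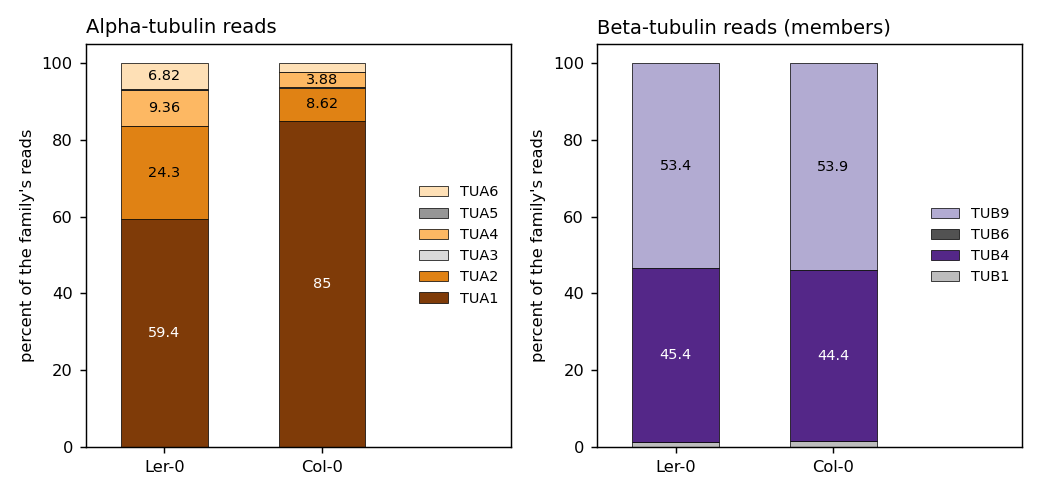
Percent of reads held by each gene within the alpha-tubulin family (left panel) and within the 4 beta-tubulin members (right panel), with the Ler-0 library on the left and the Col-0 library on the right of each panel; segments of 3% or less carry no number. TUA1 makes up 59.4% of alpha-tubulin reads in Ler-0 and 85.0% in Col-0, while the split between TUB4 and TUB9 is nearly the same in both.

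TUA3 and TUA5 made up 0.192% of alpha-tubulin reads in Ler-0 and 0.329% in Col-0. TUA3 (AT5G19770, chr5:6682493-6684579, minus strand) stood at 1.75 FPKM in Ler-0 and 3.89 in Col-0, on 325 reads in Ler-0 and 620 in Col-0, a ratio of 0.451 (0.393 to 0.516). TUA5 (AT5G19780, chr5:6687074-6689171, plus strand), which lies 2494 bases away and is read in the opposite direction, stood at 3.39 FPKM in Ler-0 and 5.58 in Col-0, a ratio of 0.607 (0.548 to 0.673). With a pseudocount of 1 neither reached 2-fold, at centred log2 ratios of -0.89 and -0.65; TUA3 passed it with a pseudocount of 0.1, at -1.18. TUA5 overlaps 64 bases of AT5G19790, which held 9 reads in Ler-0 and 2 in Col-0. Summed, the pair had 957 reads in Ler-0 and 1515 in Col-0, a ratio of 0.543 (0.5004 to 0.589).

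Beta-tubulin RNA came almost entirely from TUB9 and TUB4, in nearly equal parts and at similar levels in both ecotypes. TUB9 (AT4G20890, chr4:11182092-11184072, plus strand) stood at 1062 FPKM in Ler-0 and 1244 in Col-0, a ratio of 0.854 (0.848 to 0.859). TUB4 (AT5G44340, chr5:17859195-17861101, minus strand) stood at 936 FPKM in Ler-0 and 1064 in Col-0, a ratio of 0.880 (0.874 to 0.886). Of the reads on all 9 beta-tubulin genes, these 2 genes held 98.4% in Ler-0 and 98.0% in Col-0. TUB9 stood at 1.13 times the FPKM of TUB4 in Ler-0 and 1.17 times in Col-0. In coding sequence they were 87.3% identical and differed at 15 residues, and their identity with the other 7 beta-tubulin genes was 78.7% to 80.5%.

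TUB1 and TUB6 were minor. TUB1 (AT1G75780, chr1:28451141-28453640, minus strand) stood at 18.3 FPKM in Ler-0 and 28.4 in Col-0, a ratio of 0.643 (0.617 to 0.670). In TAIR10.1 it overlaps AT1G75770 and AT1G75785 on the other strand. TUB6 (AT5G12250, chr5:3961106-3963522, minus strand) held 112 reads in Ler-0 and 204 in Col-0, or 0.521 FPKM in Ler-0 and 1.104 in Col-0, a ratio of 0.472 (0.371 to 0.597). It counted as expressed only through its level in Col-0, so its direction is set in part by that filter. The 4 beta members together took 0.393% of reads in Ler-0 and 0.456% in Col-0, a ratio of 0.862 (0.858 to 0.866). Alpha over beta members stood at 1.16 by summed FPKM in Ler-0 and 1.05 in Col-0. By summed reads it stood at 1.43 in Ler-0 and 1.32 in Col-0. This ratio depends on how reads are scaled to length, and FPKM on the gene span understates genes with long introns.

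**Figure D3:**
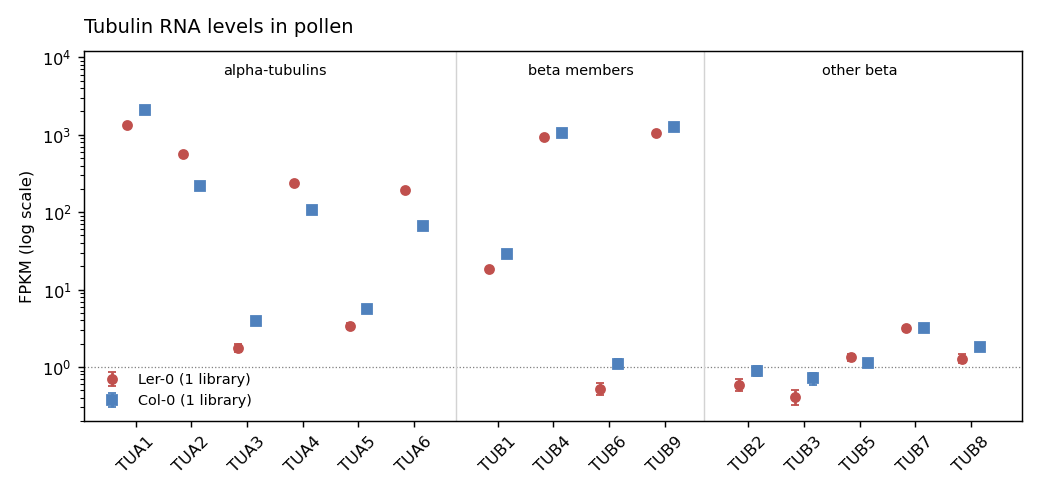
FPKM on a log axis for the 6 alpha-tubulin genes, the 4 beta members and the other 5 beta-tubulin genes, with Ler-0 (circle) left of Col-0 (square) for each gene and exact 95% Poisson intervals that are mostly smaller than the symbols; the dotted line is FPKM 1. TUA1, TUB9 and TUB4 stand at 936 FPKM or more in both libraries, and TUA2, TUA4 and TUA6 are the genes clearly higher in Ler-0.

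By FPKM the members had 1 order in both libraries: TUA1, TUB9, TUB4, TUA2, TUA4, TUA6, TUB1, TUA5, TUA3 and TUB6. Counting intervals of neighbours in that order did not overlap in either library. FPKM on the gene span understates genes with long introns, so the order was also taken on reads scaled to exonic length and library depth. On that scale all 10 places were the same in Col-0, where TUB9 and TUB4 both stood at 1129, and 8 of 10 in Ler-0, where TUB4 (993) stood above TUB9 (964). The exonic length of TUB9 in TAIR10.1, 2180 bases, exceeds its deposited span of 1980. On this exonic scale TUA1 stood at 2018 in Ler-0 against 3102 in Col-0. The ratios of all 10 members had counting intervals that excluded 1, with 3 above and 7 below. The median centred log2 ratio over the members was -0.41, against 0.06 over all expressed genes. TUB6, which counted as expressed only through Col-0, is among the 7 below and enters that median. At a filter of FPKM 5, which left 8 members, the median was -0.27.

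**Figure D4:**
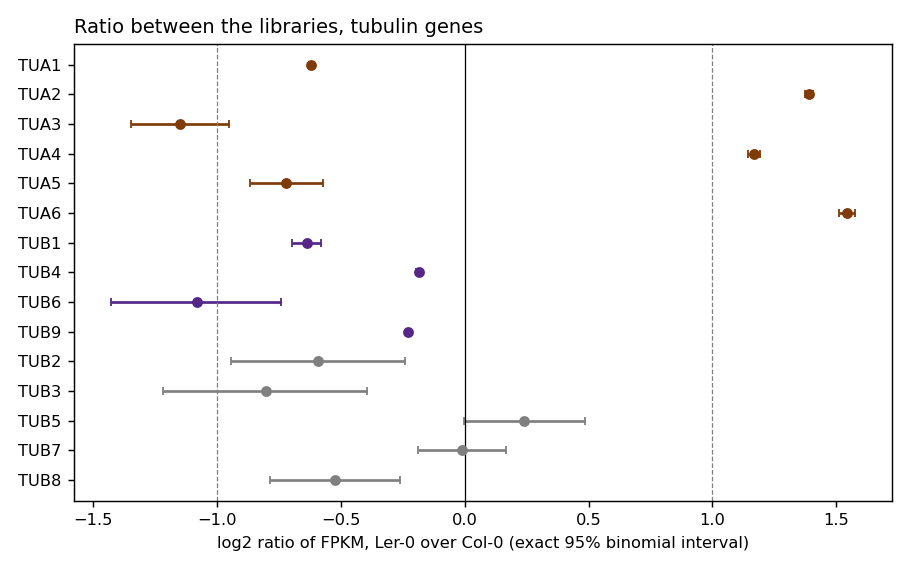
Ler-0 over Col-0 ratio on a log2 scale, without centring or pseudocount, for 15 tubulin genes, with exact 95% binomial intervals for counting error; dashed lines mark 2-fold and colours mark alpha (brown), beta members (purple) and other beta genes (grey). TUA2, TUA4 and TUA6 stand to the right of 2-fold, while the other 7 members stand left of 0, with TUA3 and TUB6, both low genes, at 0.451 and 0.472 and their intervals crossing the lower 2-fold line.

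The 5 beta-tubulin genes outside the members were low, with 3 of them expressed and 0 called. TUB7 (AT2G29550), the highest of them, stood at 3.15 FPKM in Ler-0 and 3.17 in Col-0, a ratio of 0.992 (0.876 to 1.12). TUB5 (AT1G20010) stood at 1.34 FPKM in Ler-0 and 1.13 in Col-0, a ratio of 1.18 (0.997 to 1.40), and TUB8 (AT5G23860) at 1.28 in Ler-0 and 1.84 in Col-0, a ratio of 0.696 (0.580 to 0.834). TUB2 (AT5G62690) and TUB3 (AT5G62700), whose coding sequences are 97.6% identical, stayed under FPKM 1, at 0.593 and 0.408 in Ler-0 and 0.893 and 0.712 in Col-0. The gamma-tubulin genes, which start new microtubules, were close to the limit of detection. TUBG1 (AT3G61650) had 20 reads in Ler-0 against 11 in Col-0, and TUBG2 (AT5G05620) had 10 in Ler-0 against 18 in Col-0. Their ratios of 1.56 (0.714 to 3.61) and 0.478 (0.197 to 1.09) had intervals that include 1.

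The groups formed by coding sequence also shared stretches of DNA before the deposited gene starts, a property the choice of genes did not use. Windows of 250 bases before each start in the deposited coordinates were compared on the strand of the gene. The longest identical run was 16 to 33 bases in the 5 pairs within the groups TUA2, TUA4 and TUA6, TUB4 and TUB9, and TUA3 and TUA5. In TAIR10.1 some gene models start earlier, and 161 bases of the TUA4 window, 42 of TUA6, 49 of TUB4, 165 of TUA3 and 44 of TUA5 lie inside them, against 0 in TUA1, TUA2 and TUB9. The runs of TUA3 (-82 to -37) and TUB4 (-41 to -26) are within those bases. The longest run was 7 to 11 bases in the other 40 pairs of members, TUA1 included. TUA2, TUA4 and TUA6 all held a pair of runs of 12 or more bases, 17 bases each, shown in capitals. TUA4 is printed for 89 bases, which hold the first run only, and TUA6 for 208, because the rest lies in the gene model of TAIR10.1.
TUA2: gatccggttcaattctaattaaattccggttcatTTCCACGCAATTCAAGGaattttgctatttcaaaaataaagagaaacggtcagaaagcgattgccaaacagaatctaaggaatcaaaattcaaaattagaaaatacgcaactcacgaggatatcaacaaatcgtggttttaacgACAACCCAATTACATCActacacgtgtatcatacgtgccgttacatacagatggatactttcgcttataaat
TUA4: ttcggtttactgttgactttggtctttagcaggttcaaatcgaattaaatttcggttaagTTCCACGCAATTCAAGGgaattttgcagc
TUA6: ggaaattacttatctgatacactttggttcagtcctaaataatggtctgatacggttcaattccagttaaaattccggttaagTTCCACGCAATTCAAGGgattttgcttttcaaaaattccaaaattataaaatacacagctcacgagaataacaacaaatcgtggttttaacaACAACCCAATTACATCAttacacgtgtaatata
These lie at chr1:18517336-18517585 (plus strand), chr1:1358548-1358636 (minus) and chr4:8550496-8550703 (minus) on TAIR10. The first run occurred in 4 and the second in 3 of 27212 windows before protein-coding genes, on either strand. Those counts include the windows of TUA2, TUA4 and TUA6 themselves. The runs are given as a description of the sequence.

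The windows of TUA1 and TUB9, the most abundant alpha- and beta-tubulin RNAs by FPKM (TUB4 stood above TUB9 per exonic length in Ler-0), are shown for comparison. In TUB9 the capitals mark a run of 16 bases also found in the TUB4 window, inside its TAIR10.1 gene model; TUA1 held no run of 12 bases shared with a group.
TUA1: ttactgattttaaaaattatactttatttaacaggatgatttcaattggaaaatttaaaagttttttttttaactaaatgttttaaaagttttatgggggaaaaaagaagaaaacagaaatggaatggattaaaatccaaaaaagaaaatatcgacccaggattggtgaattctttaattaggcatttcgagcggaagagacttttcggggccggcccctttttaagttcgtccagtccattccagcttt
TUB9: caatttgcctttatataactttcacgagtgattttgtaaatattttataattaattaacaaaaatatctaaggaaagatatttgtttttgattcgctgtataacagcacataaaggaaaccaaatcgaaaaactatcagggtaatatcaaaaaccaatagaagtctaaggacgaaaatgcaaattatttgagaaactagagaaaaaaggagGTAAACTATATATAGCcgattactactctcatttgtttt
They lie at chr1:24049756-24050005 and chr4:11181842-11182091, both on the plus strand of TAIR10. The run of 16 bases occurred in 3 of the 27212 windows, those of TUB4 and TUB9 included. Motifs were searched on both strands by their letters. The G-box core CACGTG was found before TUA2, TUA4 and TUA6, 3 of the 10 members, and in 7.69% of all windows. Those 3 windows share identical runs, 20 to 33 bases at the longest in each pair, and are not independent of each other. CACGTG was added to the search after these sequences were seen. It begins at position -52 before TUA2, whose second run ends at -56, at -57 in the TUA4 window, inside its TAIR10.1 gene model, and at -55 before TUA6. TATAAA was found before 4 members (TUA2, TUA4, TUA6 and TUB9) and in 47.9% of all windows. AGAAA, an element described in pollen promoters of tomato, was found before 7 members and in 84.2% of windows. AAACCCT and TGGGCC were found before 0 members and in 10.0% and 14.6% of windows.

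Of 95 other genes of the microtubule system that the annotation matched, 39 were expressed, with 3 called 2-fold higher and 0 lower in Ler-0, where 11.3% of all expressed genes were higher and 10.3% lower. Of the 3 calls, 2 (MAP65-5 and AT4G39050) counted as expressed only through Ler-0, so their direction is set in part by that filter. The median centred log2 ratio of the 39 expressed genes was 0.09. Genes expressed through 1 library only enter that median, so the filter sets it in part. These lists were drawn up with earlier results of these data known. Tubulin folding factors, prefoldin and the chaperonin that folds tubulin had 6 of 21 members expressed and 0 called, with a median of 0.13. The most abundant were the small GTPase ARL2 (AT2G18390), at 11.7 FPKM in Ler-0 against 9.20 in Col-0, and the cofactor TFCA (AT2G30410), which binds beta-tubulin, at 8.62 in Ler-0 against 8.25 in Col-0. At the high end of this list was the prefoldin subunit PFD4, at 1.60 FPKM in Ler-0 against 0.777 in Col-0, a centred log2 ratio of 0.49. The chaperonin family gene AT3G18190 (0.26) came next, and the chaperonin subunit TCP-1 (AT3G20050, -0.10) was at the low end. PFD4 and AT3G18190 counted as expressed only through Ler-0 and TCP-1 only through Col-0. Their directions, and with them the list median, are set in part by that filter. Nucleation genes had 6 of 17 members expressed and 0 called, with a median of 0.11. Augmin subunits led them, with AUG8 at 11.2 FPKM in Ler-0 and 9.62 in Col-0, AUG6 at 3.21 in Ler-0 against 3.03 in Col-0 and AUG2 at 1.43 in Ler-0 against 1.27 in Col-0. AUG4 stood at 1.79 FPKM in Ler-0 and 0.822 in Col-0. GIP1, a small partner of the gamma-tubulin complex, rested on 103 reads in Ler-0 and 4 in Col-0, a ratio of 22.1 (8.39 to 82.8), but a centred log2 ratio of 0.91. AUG1 (1.01 FPKM in Ler-0, 0.808 in Col-0), AUG4 and GIP1 counted as expressed only through Ler-0. The directions of these 3 genes, and with them the list median, are set in part by that filter.

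Microtubule-associated proteins had 16 of 30 members expressed, 2 of them called higher in Ler-0 and 0 lower, with a median of 0.07. Against 11.3% of all expressed genes, neither this count nor that of 1 among the kinesins stands as a result about its list. MAP65-5, KTN1 and MAP70-2 counted as expressed only through Ler-0, and EB1C and TON2 only through Col-0. The list median is thus set in part by the filter. MAP18 (AT5G44610), a microtubule-destabilizing protein that acts in pollen tube growth, stood at 148 FPKM in Ler-0 and 25.5 in Col-0, a centred log2 ratio of 2.43. MAP65-5 (AT2G38720), of the family that bundles microtubules, stood at 4.63 FPKM in Ler-0 and 0.307 in Col-0, on 1737 reads in Ler-0 and 99 in Col-0, a centred log2 ratio of 2.04. Both passed 4-fold, as did 3.44% of expressed genes. WDL1 (AT3G04630), a relative of the microtubule protein WVD2 and the most abundant of the list, stood at 232 FPKM in Ler-0 against 197 in Col-0. The lowest were MAP65-9, at 12.1 FPKM in Ler-0 against 19.0 in Col-0, and PCAP1, at 2.12 in Ler-0 against 3.60 in Col-0. Kinesins, which move along microtubules, had 8 of 20 members expressed, with 1 called higher and a median of 0.17. The one called was the kinesin motor family gene AT4G39050, at 4.87 FPKM in Ler-0 and 0.870 in Col-0, a centred log2 ratio of 1.59. AT4G39050 and ARK2 (1.13 FPKM in Ler-0, 0.753 in Col-0) counted as expressed only through Ler-0. The kinesin median is thus set in part by the filter. ATK4 (AT5G27000), the most abundant of the listed kinesins, stood at 34.8 FPKM in Ler-0 against 61.2 in Col-0 (-0.86). ZWI, a calmodulin-binding kinesin, stood at 7.84 in Ler-0 against 11.5 in Col-0 (-0.56). KINESIN-13A stood at 14.9 in Ler-0 against 15.1 in Col-0, and PAKRP1 at 2.00 in Ler-0 against 1.15 in Col-0.

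**Figure D5:**
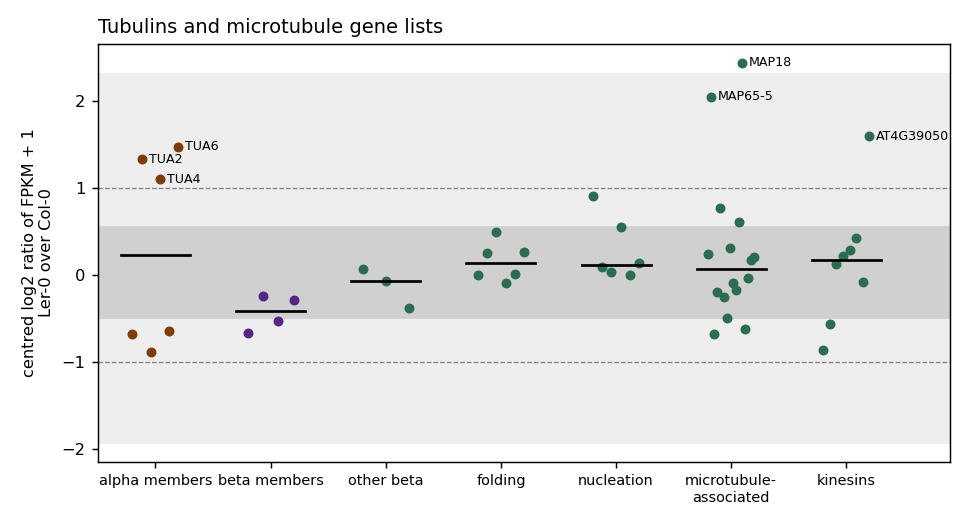
Centred log2 ratio with a pseudocount of 1, Ler-0 over Col-0, of each expressed gene of the tubulin and microtubule lists; black bars are list medians, dashed lines mark 2-fold, and the dark and light bands hold the central 50% and 95% of all 9562 expressed genes. TUA2, TUA4, TUA6, MAP18, MAP65-5 and AT4G39050 lie above the upper dashed line, and no listed gene lies below the lower one.

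The libraries held 88952509 (Ler-0) and 76488187 (Col-0) reads over the listed loci, and defining markers of pollen were present in both. The 6 vegetative cell markers stood between 34.4 and 3073 FPKM in Ler-0 and between 38.3 and 5875 in Col-0, with sums of 5309 in Ler-0 and 7933 in Col-0. Of the 6, 1 was called higher in Ler-0 and 0 lower, and VGD1 alone held 3073 FPKM in Ler-0 against 5875 in Col-0. The 6 sperm markers stood between 2.18 and 138 FPKM in Ler-0 and between 0.980 and 58.0 in Col-0, with sums of 164 in Ler-0 and 93.1 in Col-0; 2 were called higher and 1 lower. Each sum is carried by 1 gene. Without MGH3, at 138 FPKM in Ler-0 against 58.0 in Col-0, the other 5 sperm markers summed to 25.6 in Ler-0 and 35.1 in Col-0. Without VGD1 the other 5 vegetative cell markers summed to 2236 in Ler-0 against 2057 in Col-0. Both sums thus turned round without their most abundant gene, and neither marker list stood on 1 side. GEX2 and GEX3 had ratios of 0.503 and 0.441, while DAZ2, MGH3, DUO1 and HAP2 had 5.33, 2.38, 1.85 and 1.56. DAZ2 counted as expressed only through Ler-0, so its call is set in part by the filter on low values. The part of either cell type in the tubulin differences was not tested. In such bulk samples fewer cells of a type and less RNA per cell cannot be told apart. Of 5 tapetum markers 0 were expressed, with the highest at 0.306 FPKM in Ler-0 and 0.508 in Col-0. Green tissue markers reached 33.1 FPKM in Ler-0 and 28.9 in Col-0, with sums of 54.6 in Ler-0 and 49.7 in Col-0 over 6 genes. Of these, 1 was called lower in Ler-0, RBCS1B, which counted as expressed only through Col-0 (0.786 FPKM in Ler-0, 3.03 in Col-0). Floral organ identity genes reached 1.82 in Ler-0 and 0.9749 in Col-0 over 5 genes. The highest green tissue marker stood above TUB1 in both libraries. The part of other flower tissue in the reads of the low tubulin genes was not tested.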

How the data were processed

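RNA of mature pollen was measured by sequencing in 1 Ler-0 and 1 Col-0 library, both prepared with the ScriptSeq-v2 kit after rRNA depletion, per the labels' protocols. The authors deposited FPKM per gene, per the file headers, and Subread and the build TAIR10 were used, per the submitters' processing notes. Multiplied by gene span (end minus start), 100% of values were whole multiples of a single step, within 0.01, so reads were recovered. FPKM gave the levels; exact 95% Poisson and Clopper-Pearson binomial intervals do not cover amplification, plants or library preparation, since amplified reads can be copies of 1 molecule. A floor of 3 reads is 0.0337 FPKM in Ler-0 and 0.0392 in Col-0 for a gene of 1 kb. Ecotype cannot be told apart from plants, collection and library.

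The log2 ratio of FPKM + 1 was centred on its median over genes that reach FPKM 1 in each library. The pseudocount of 1 makes ratios of low genes too small. Members, lists and the named genes (all tubulins, and of each other list the 2 highest, 2 lowest and 2 most abundant expressed members) were chosen with earlier results of these data known. A listed gene was used where TAIR10.1 gives its name or product; 3 did not match (2 kinesins and 1 tapetum gene). Coding sequences were aligned with Biopython 1.88; intervals came from scipy 1.17.1 under Python 3.11.15. Counts past 2-fold were read against the share of all expressed genes past it. The ratio procedure was tested on simulated counts with known fold changes and counting error only. Such counts hold no variation between plants or libraries, so that test cannot speak to it. Alternatives covered the pseudocount, centring, filter, loci, pooled copies and exonic length. Protein sequences are not printed here. Likeness of pattern to other genes was not ranked, since 2 libraries give 1 difference. The windows before TUA2, TUA4 and TUA6 were added to those of TUA1 and TUB9 after values were seen.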

Additional observations from a re-analysis of the deposited data

How the results depend on the processing

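TUA2, TUA4 and TUA6 stayed above 2-fold under each of the 9 alternatives to the pseudocount, centring, filter and set of loci, with centred log2 ratios of 1.31 to 1.43, 1.09 to 1.1996 and 1.44 to 1.57, and 0 members reached 4-fold. The filter alters only which genes count as expressed, so those settings could not change a member's ratio. Where loci were rescaled, the ratios were centred again, which nearly cancels the rescaling. Members at least 2-fold apart, 3 in the report, became 5 with a pseudocount of 0.1 and 5 with none (chosen after seeing the data), where TUA3 (-1.18 and -1.23) and TUB6 (-1.03 and -1.16), both low genes, were lower in Ler-0. With TUA2 pooled with TUA4 and TUA3 with TUA5, 2 of 8 units were called. The median over members (-0.41) was -0.50 with a pseudocount of 0.1 or none, -0.24 with 5, -0.31 when centred on genes at FPKM 10 or more, -0.35 without centring and -0.27 at a filter of FPKM 5, which left 8 members. Calls among the 95 microtubule genes (3) became 5 with a pseudocount of 0.1, 6 with none, 1 with 5, 4 when centred on genes at FPKM 10 or more, and 1 at a filter of FPKM 5, which left 14 genes. The alpha-tubulin ratio of 0.931 was 0.941 over protein-coding loci alone, 0.940 without structural RNA loci (chosen after seeing the data) and 2.52 without TUA1. The beta-tubulin ratio of 0.862 was 0.870 over protein-coding loci alone, 0.869 without structural RNA loci and 0.871 without TUB9. Centring on abundant genes shifted the centre by -0.10. Members under 1000 reads in both libraries (TUA3, TUA5 and TUB6) carry the widest intervals. No paired analysis was possible because Ler-0 and Col-0 have 1 library each.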
